A study of Rattus norvegicus with 12 samples.

Results

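A list of 9 hypoxia sensing genes was followed through rat kidneys after ischemia-reperfusion injury: Hif1a, Epas1, Egln1, Egln2, Egln3, Vhl, Adm, Bnip3 and Epo. A gene was taken where an array row was annotated with its symbol and no other, which held for 8 of the 9, out of 18166 genes with such a row. The only row naming Bnip3, a mitochondrial cell death and mitophagy protein, also named the pseudogene Bnip3-ps1, and Bnip3 is given no value here. The study asked how an inhibitor of the microRNA miR-182 acts on kidneys after this injury. The 4 groups had 3 arrays each and were anti-miR-182 at day 2, placebo at day 2, anti-miR-182 at day 7 and placebo at day 7 after the injury. All 4 groups were injured rats (Rattus norvegicus), and uninjured kidneys were not analysed here. Strain, age, sex, the dose and route of the inhibitor and what the placebo was are missing from the labels used here. Each array has its own animal code in the labels, and kidney pieces hold many cell types, so that fewer cells of a type and less RNA per cell cannot be told apart.

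Hypoxia-inducible factors (HIF) are transcription factors made of an oxygen-controlled alpha subunit, such as HIF-1 alpha (Hif1a) or HIF-2 alpha (Epas1), and a stable partner (Arnt). With oxygen present, prolyl hydroxylases (Egln1, Egln2 and Egln3, also called PHD2, PHD1 and PHD3) mark the alpha subunit, and the von Hippel-Lindau protein (Vhl) hands it to a ubiquitin ligase for destruction. When oxygen falls, the alpha subunits persist and switch on genes such as Adm, the vasodilator peptide adrenomedullin, Bnip3 and Epo, the red blood cell hormone that adult kidneys make in interstitial cells. Control of the alpha subunits is largely at the protein level, which an RNA array does not measure.

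The sequences shown are the microRNA that the treatment targets and the promoters of the prolyl hydroxylase genes Egln1 and Egln2, whose day 2 values lay lowest among the members relative to placebo. EGLN1 and HIF1AN, which encode oxygen-dependent hydroxylases acting on HIF, have been reported as miR-182 targets in human cancer cells. Whether miR-182 acts on the rat genes was not tested here. Sequences are from RefSeq, build GRCr8, 5′ to 3′. In the microRNA, at chr4:59752249-59752273 on the minus strand, capitals mark the seed, bases 2 to 8. In the promoters, 250 bases before to 50 after the gene start, capitals mark ACGTG or GCGTG on either strand, the core letters of the element that HIF binds. The Egln1 promoter is chr19:69804632-69804931 and the Egln2 promoter is chr1:91586936-91587235, both on the minus strand.
rno-miR-182: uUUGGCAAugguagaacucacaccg
Egln1 promoter: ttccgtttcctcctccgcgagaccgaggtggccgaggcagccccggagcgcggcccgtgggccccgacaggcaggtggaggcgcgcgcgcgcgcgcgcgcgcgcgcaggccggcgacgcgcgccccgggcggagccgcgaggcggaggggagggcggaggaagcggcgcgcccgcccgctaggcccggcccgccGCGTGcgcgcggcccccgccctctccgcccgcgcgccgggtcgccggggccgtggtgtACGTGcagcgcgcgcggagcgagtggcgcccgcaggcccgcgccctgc
Egln2 promoter: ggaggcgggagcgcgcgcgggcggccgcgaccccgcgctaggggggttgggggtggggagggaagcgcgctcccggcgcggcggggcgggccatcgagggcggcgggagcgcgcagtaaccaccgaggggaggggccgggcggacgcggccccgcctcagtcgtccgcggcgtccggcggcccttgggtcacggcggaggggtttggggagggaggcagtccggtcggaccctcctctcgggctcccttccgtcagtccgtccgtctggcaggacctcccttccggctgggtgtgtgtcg
All 9 members matched a promoter in the RefSeq table. The windows of Hif1a, Epas1 and Adm are set at a start inside the annotated gene and not at its outer end. The Egln1 window held 2 such matches and the Egln2 window 0. Hif1a had 3 and Bnip3 had 4, and in each of these a pair overlap as the palindrome CACGTG. Epo had 1, and Epas1, Egln3, Vhl and Adm had 0. Of 33469 promoters of this length 41.6% held at least 1 of these letter strings, so a match is common, and none of them is evidence of a bound site.

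The deposited values were log2 signals, and the median over the tested genes ran from 6.42 to 6.57 on the day 2 arrays and from 6.30 to 6.38 on the day 7 arrays. The labels do not say whether both days were normalized together, and 190 control rows have no day 2 values, so day and normalization cannot be told apart in any comparison between days. Across all genes the median difference of day 7 minus day 2 was -0.21 under anti-miR-182 and -0.18 in placebo on the log2 scale. Of 12 kidney marker genes fixed for the check, 11 were measured, with means over arrays from 6.71 for Nphs1 (nephrin, of podocytes) to 11.5 for Umod (uromodulin, of the thick ascending limb). The array of anti-miR-182 day 2 replicate 3 stood furthest from its day, with a mean correlation of 0.983 with the other day 2 arrays against 0.986 or more for the others, and the lowest array weight, 0.43 of a range up to 2.15. On the row annotated Mir182, the log2 signal was 6.42, 6.21 and 6.57 with anti-miR-182 at day 2 against 4.84, 4.48 and 4.69 in placebo. At day 7 it was 5.63, 6.0 and 4.93 with anti-miR-182 against 4.32, 3.97 and 4.75 in placebo. The row was higher on every treated array than on the placebo arrays of its day, and since an inhibitor of this kind blocks a microRNA and the form the row detects is not stated, it does not check inhibition.

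At day 2 the oxygen sensor Egln1, the main hydroxylase that limits HIF in most tissues, showed the largest difference of the 8 measured members and lay lower with anti-miR-182, but no member passed the adjusted threshold and 1, Egln1, had an unadjusted p under 0.05. By that test 0% of all genes passed and 6.61% had such an unadjusted p. The Egln1 log2 signal was 8.24, 8.46 and 7.64 with anti-miR-182 and 8.73, 8.61 and 8.61 in placebo. All 3 treated arrays were below all 3 placebo arrays, with the treated arrays widely spread. The difference was -0.54 ± 0.19 (SE, 95% interval -0.94 to -0.14; limma with Benjamini-Hochberg adjustment over 18166 genes, unadjusted p = 0.0123, adjusted p = 0.691). Of all genes, 0.418% had a lower difference, and 4.24% had treated arrays entirely below the placebo arrays. Without anti-miR-182 day 2 replicate 3 the difference was -0.30 ± 0.16 (limma, adjusted p = 0.657), and over all settings tried the adjusted p lay between 0.431 and 0.999.

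Egln2, another hydroxylase of the same family, had signals of 6.95, 6.62 and 6.05 with anti-miR-182 and of 7.01, 6.88 and 6.86 in placebo at day 2. Replicate 1 of anti-miR-182 lay inside the placebo range and the other two below it, so that the groups overlapped. The difference was -0.38 ± 0.18 (SE; limma, unadjusted p = 0.0521, adjusted p = 0.754), and -0.13 ± 0.13 without anti-miR-182 day 2 replicate 3. Egln3, the hydroxylase that is itself strongly induced by HIF, had 6.49, 6.13 and 6.22 with anti-miR-182 and 6.44, 6.42 and 6.23 in placebo, a difference of -0.08 ± 0.15 (SE).

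Neither alpha subunit differed clearly from placebo at day 2, and the Epas1 estimate was the less precise. Hif1a had 10.28, 10.48 and 10.43 with anti-miR-182 and 10.41, 10.38 and 10.43 in placebo, a difference of -0.01 ± 0.10 (SE, 95% interval -0.23 to 0.21). Epas1, the subunit prominent in endothelial and interstitial cells of the kidney, had 8.83, 8.67 and 7.86 with anti-miR-182 and 8.67, 8.56 and 8.56 in placebo. The Epas1 difference was -0.15 ± 0.19 (SE, 95% interval -0.56 to 0.27). A single array carried that sign, since without anti-miR-182 day 2 replicate 3 the Epas1 difference was 0.15 ± 0.12. Vhl had 6.0, 6.52 and 6.32 with anti-miR-182 and 5.93, 6.23 and 6.29 in placebo, a difference of 0.13 ± 0.17 (SE).

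The response genes gave no clear change at day 2. Adm had 6.84, 6.56 and 6.57 with anti-miR-182 and 6.84, 6.38 and 6.45 in placebo, a difference of 0.10 ± 0.13 (SE). Epo had 5.60, 5.41 and 5.78 with anti-miR-182 and 5.78, 5.57 and 5.66 in placebo, a difference of -0.07 ± 0.13 (SE), and -0.16 ± 0.13 without anti-miR-182 day 2 replicate 3. Both pairs of groups overlapped. The mean row signals of Epo, Egln3 and Vhl lay below 6.42, the median over all genes, and the other 5 rows were brighter.

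**Figure D1:**
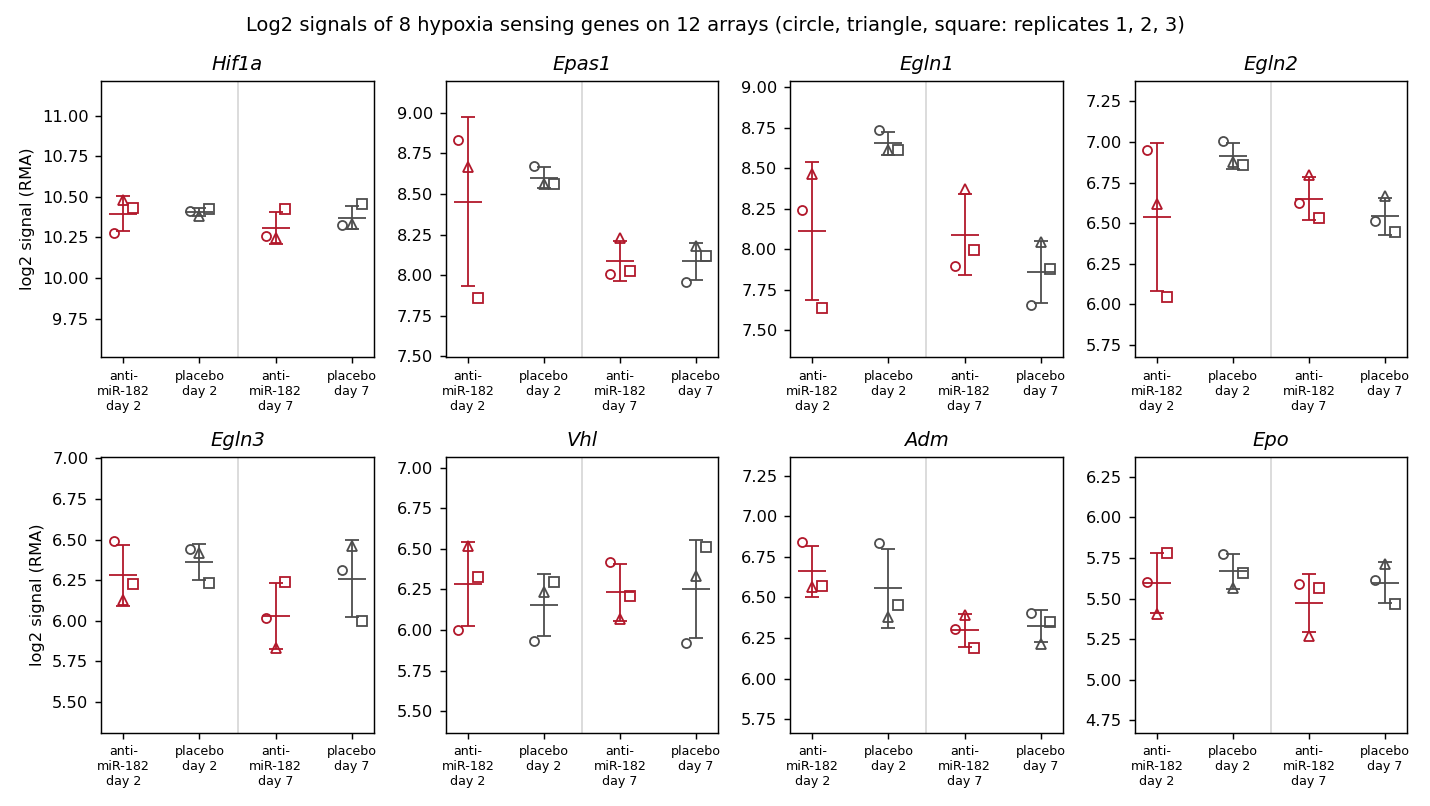
Log2 array signal of the 8 measured hypoxia sensing genes on each of the 12 arrays, with the group mean and SD (n = 3) as bars, anti-miR-182 left of placebo for each day. Panels have axes of equal span but of different position. Egln1 is lower on all 3 anti-miR-182 arrays than on all 3 placebo arrays at day 2, and replicate 3 (square) is lowest there for Epas1, Egln1 and Egln2.

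Summed linear signal of tubular injury markers (14 of 14 measured) ranged from 7717 to 15783 with anti-miR-182 and from 16731 to 18342 in placebo at day 2, so those groups did not overlap. Such a sum is weighted toward its brightest rows. By gene, 10 of the 14 injury markers were lower with anti-miR-182 and 4 were higher, with a list median of -0.35 on the log2 scale. Without anti-miR-182 day 2 replicate 3 that list median was -0.10. Endothelial markers (10 of 12 measured) ranged from 1571 to 2000 with anti-miR-182 and from 1568 to 1630 in placebo. The dimmest injury marker had a mean log2 signal of 4.84 and no marker row was at 0. The part of these markers in the Egln1 difference was not tested.

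At day 7 no member passed or had an unadjusted p under 0.05, where 0% of all genes passed and 3.26% had such a p. Every pair of groups overlapped, while 7.26% of all genes had groups that did not. Egln1 had 7.90, 8.37 and 8.0 with anti-miR-182 and 7.66, 8.04 and 7.88 in placebo, a difference of 0.23 ± 0.19 (SE; limma, adjusted p = 0.999). Egln3 had 6.02, 5.83 and 6.24 with anti-miR-182 and 6.31, 6.46 and 6.0 in placebo, a difference of -0.23 ± 0.15 (SE). The sign of these 2 was opposite, and neither passed. Epo had 5.59, 5.27 and 5.57 with anti-miR-182 and 5.62, 5.71 and 5.47 in placebo, a difference of -0.12 ± 0.13 (SE), and Egln2 had 6.62, 6.79 and 6.53 with anti-miR-182 and 6.51, 6.67 and 6.45 in placebo, a difference of 0.11 ± 0.18 (SE). These groups overlapped with differences no larger than their errors. Hif1a had 10.26, 10.25 and 10.42 with anti-miR-182 and 10.33, 10.33 and 10.45 in placebo, a difference of -0.06 ± 0.10 (SE). Vhl had 6.42, 6.07 and 6.21 with anti-miR-182 and 5.92, 6.33 and 6.51 in placebo, a difference of -0.02 ± 0.17 (SE). For Adm the difference was -0.03 ± 0.13 and for Epas1 it was 0.00 ± 0.19 (SE).

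Averaged over both days, no member passed or had an unadjusted p under 0.05 (5.27% of all genes had one), and the difference was -0.16 ± 0.13 (SE) for Egln1 and -0.16 ± 0.10 (SE) for Egln3, with adjusted p (limma) of 0.919 and 0.901. Without anti-miR-182 day 2 replicate 3 the Egln1 mean was -0.04 ± 0.11 (SE). The only gene of 18166 that passed, 0.0055% of them, was Mir182. The treatment effect at day 7 minus that at day 2 was 0.77 ± 0.27 for Egln1 (SE, 95% interval 0.20 to 1.34; limma, unadjusted p = 0.0118, adjusted p = 0.999; 0% of all genes passed and 3.92% had an unadjusted p under 0.05) and 0.53 ± 0.21 without anti-miR-182 day 2 replicate 3. For Egln2 it was 0.49 ± 0.25 (SE; limma, unadjusted p = 0.0733, adjusted p = 0.999), and 0.24 ± 0.18 without that array. Because day 2 and day 7 treatment effects are each measured against the placebo of that day, a constant shift between days does not enter this difference.

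**Figure D2:**
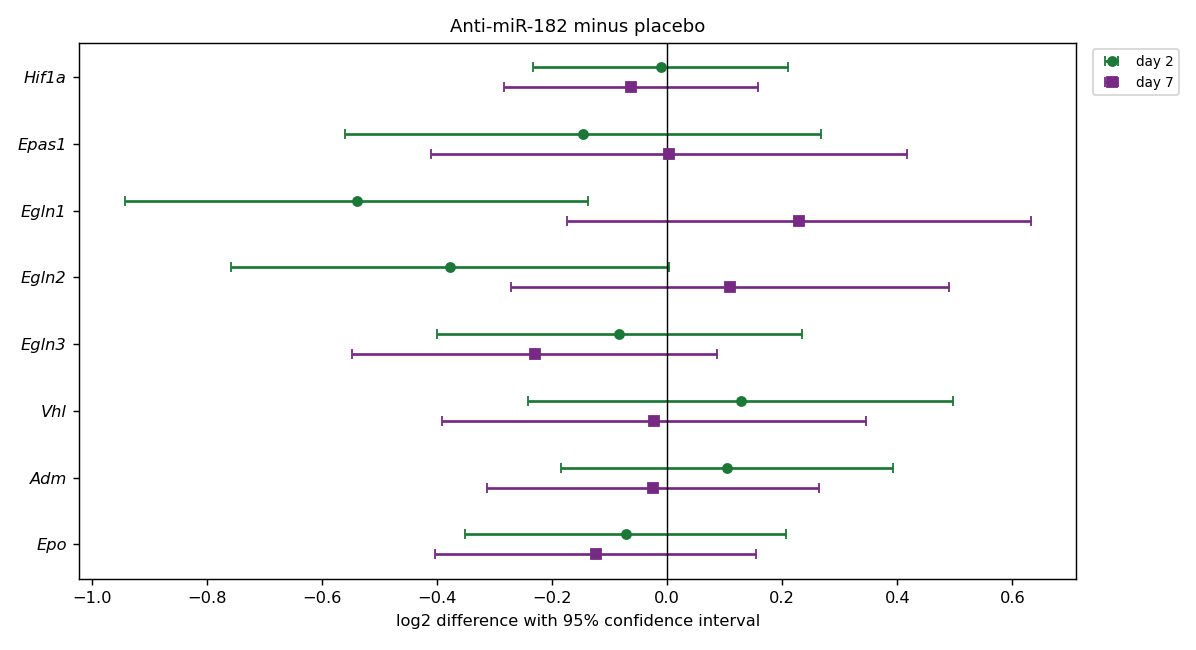
Difference of log2 signal, anti-miR-182 minus placebo, for the 8 measured members at day 2 (circles) and day 7 (squares), with 95% confidence intervals from limma. The Egln1 interval at day 2, -0.94 to -0.14, is the only one that leaves out 0, without an adjusted p under 0.05.

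Between days, Egln1 in placebo kidneys was the 1 member that passed, and it fell. Its signal was 7.66, 8.04 and 7.88 at day 7 against 8.73, 8.61 and 8.61 at day 2, with no overlap, a difference of -0.79 ± 0.19 (SE; limma, adjusted p = 0.00833). Relative to the all-gene median shift the difference was -0.61. Of all genes, 28% passed in this comparison (4.22% higher and 23.7% lower), so a pass by 1 of 8 members is below that background. An unadjusted p under 0.05 was held by 2 members, Egln1 and Epas1, and by 41.3% of all genes. Quantile normalization over all arrays gave -0.51 and ended the call (adjusted p = 0.0593), and the call held in 20 of 21 settings, including centring on the array median (-0.64, adjusted p = 0.017).

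Epas1 in placebo had 7.96, 8.18 and 8.12 at day 7 against 8.67, 8.56 and 8.56 at day 2, a difference of -0.51 ± 0.19 (SE; limma, adjusted p = 0.0602). Egln2 in placebo had 6.51, 6.67 and 6.45 at day 7 against 7.01, 6.88 and 6.86 at day 2, a difference of -0.37 ± 0.18 (SE; limma, adjusted p = 0.128). In both, as in Egln1, the days did not overlap, which held in the lower direction for 3 of 8 members and for 40% of all genes. Both passed without anti-miR-182 day 2 replicate 3, which enters these placebo values only through the shared estimate of spread (adjusted p 0.00462 for Epas1 and 0.0318 for Egln2). Adm in placebo had 6.40, 6.21 and 6.35 at day 7 against 6.84, 6.38 and 6.45 at day 2, a difference of -0.23 ± 0.13 (SE), and Vhl differed by 0.10 ± 0.17, with overlapping days. Egln3 (-0.10 ± 0.15), Epo (-0.07 ± 0.13) and Hif1a (-0.04 ± 0.10) also overlapped, and all 3 turned positive with quantile normalization and with centring.

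Under anti-miR-182 no member passed between days, against 27.5% of all genes (2.68% higher and 24.9% lower), and 1 member, Adm, had an unadjusted p under 0.05, against 41.4% of all genes. Egln1 had 7.90, 8.37 and 8.0 at day 7 against 8.24, 8.46 and 7.64 at day 2, a difference of -0.02 ± 0.19 (SE; limma, adjusted p = 0.935) that turned positive with both other scalings and was -0.26 ± 0.16 (SE) without anti-miR-182 day 2 replicate 3. Epas1 had 8.01, 8.23 and 8.02 at day 7 against 8.83, 8.67 and 7.86 at day 2, a difference of -0.37 ± 0.19 (SE; limma, adjusted p = 0.167), and -0.66 (adjusted p = 0.00308) without replicate 3 of day 2. Adm had 6.30, 6.39 and 6.19 at day 7 against 6.84, 6.56 and 6.57 at day 2, a difference of -0.36 ± 0.13 (SE; limma, adjusted p = 0.0576). Adm was the only member whose days did not overlap here, against 35% of all genes in that direction. Without placebo day 2 replicate 1 its adjusted p was 0.0386. Egln2 (0.11 ± 0.18, and -0.13 ± 0.13 without anti-miR-182 day 2 replicate 3), Egln3 (-0.25 ± 0.15), Epo (-0.12 ± 0.13), Hif1a (-0.09 ± 0.10) and Vhl (-0.05 ± 0.17) overlapped between days, and the last 3 turned positive with both other scalings. Without anti-miR-182 day 2 replicate 3, Epo differed by -0.03 ± 0.13 and Vhl by -0.03 ± 0.20 (SE). The lack of a passing Egln1 difference under anti-miR-182 beside the pass in placebo is not a shown difference, since the test of the difference itself had an adjusted p of 0.999.

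Proximal tubule markers (14 of 15 measured) summed to 19649 to 26291 at day 7 against 25872 to 36206 at day 2 under anti-miR-182. In placebo they summed to 17312 to 21271 at day 7 against 28757 to 32047 at day 2. Interstitial markers (12 of 12) summed to 4923 to 6316 at day 7 against 3926 to 5550 at day 2 under anti-miR-182, with overlap, and to 5647 to 7362 at day 7 against 4296 to 4984 at day 2 in placebo, without overlap. Macrophage markers (12 of 12) summed to 2877 to 3288 at day 7 against 2325 to 2958 at day 2 under anti-miR-182, and to 2704 to 5204 at day 7 against 2395 to 2641 at day 2 in placebo with no overlap in the placebo arm. These sums are on the linear scale, and their part in the day differences was not tested.

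**Figure D3:**
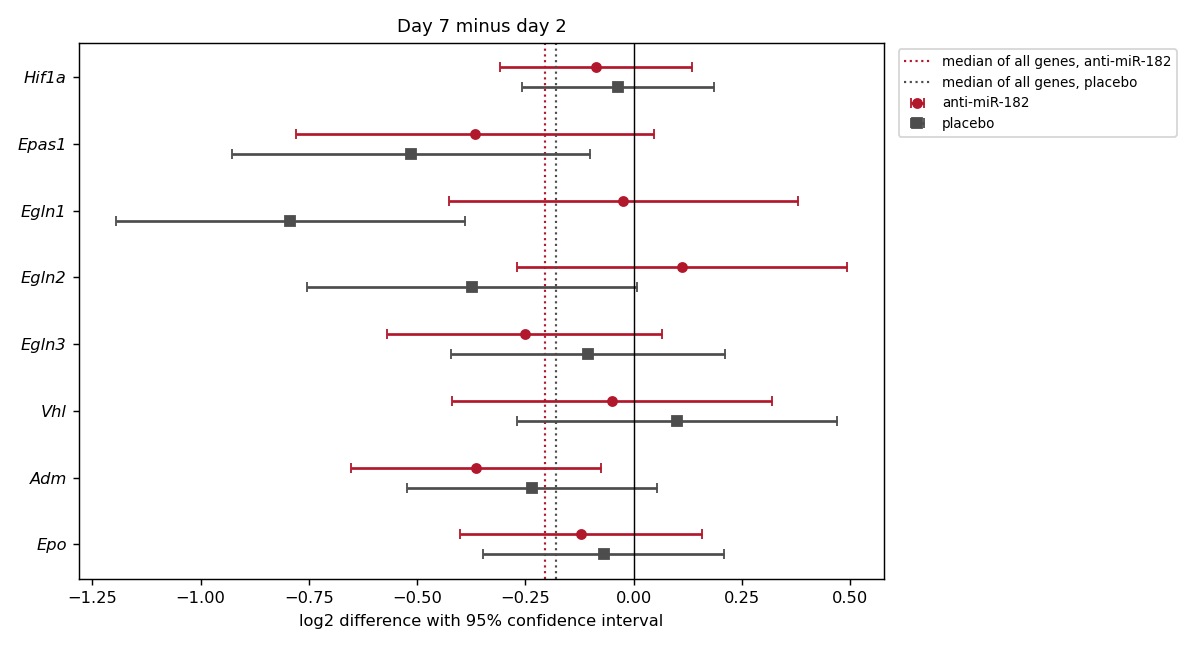
Difference of log2 signal, day 7 minus day 2, for the 8 measured members under anti-miR-182 (circles) and in placebo (squares), with 95% confidence intervals from limma. Dotted lines mark the median over all genes, -0.21 under anti-miR-182 and -0.18 in placebo. The placebo Egln1 value, -0.79, lies furthest from them.

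The members did not vary as 1 block. After the mean of each day was taken out, over 12 arrays from the same table, Egln1 and Egln2 had a Pearson r of 0.848, Epas1 and Egln2 of 0.884, and Egln3 and Epo of 0.671. Without anti-miR-182 day 2 replicate 3 (11 arrays) the first 2 were 0.539 and 0.429 and the last was 0.792. Hif1a had the lowest SD of the members in all 4 groups, from 0.02 in placebo at day 2 to 0.11 with anti-miR-182 at day 2. The genes most like each member, by that same r, included Gsap for Hif1a (0.924), C19h1orf198 for Epas1 (0.985), Gna11 for Egln1 (0.951), Smarcb1 for Egln2 (0.947), Sat1 for Egln3 (0.945), Irf4 for Vhl (0.915), Lypd4 for Adm (0.896) and Becn1 for Epo (0.879). The second most alike were Ro60 (0.897), Tdo2 (0.971), Litaf (0.948), Zmiz1 (0.945), Tmem45a (0.898), Cyp2b14l1 (0.887), Rpl10l4 (0.895) and Msl3 (0.877), in the same order of members. For Egln2, leaving out anti-miR-182 day 2 replicate 3 lowered r to 0.759 with Smarcb1 and 0.774 with Zmiz1. For Egln1 r fell to 0.869 with Gna11 and 0.863 with Litaf. For Epas1 r fell to 0.917 with C19h1orf198 and 0.887 with Tdo2. The other members then had r between 0.872 and 0.943 with their 2 genes. Each of these genes was picked for its high r out of all those searched.

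The wider pathway was read from 92 further genes in 4 lists, of which 81 were measured, and none passed in a comparison of treatment with placebo. An unadjusted p under 0.05 was held by 9 of the 81 at day 2, by 4 at day 7, by 11 for the mean of both days and by 5 for the difference of the effects. The shares of all genes were 6.61% at day 2, 3.26% at day 7, 5.27% for the mean and 3.92% for the difference. The genes for vessels, oxygen and iron had the highest list median at day 2, 0.19, with 16 of 20 higher. The median of all genes was 0.03, and 58.7% of all genes were higher. Within the vessel list, Tek, the angiopoietin receptor of endothelium, had 9.64, 9.28 and 9.42 with anti-miR-182 against 8.71, 8.58 and 8.67 in placebo, a difference of 0.79 ± 0.15 (SE; limma, adjusted p = 0.444). Hmox1, which degrades heme, had 7.13, 7.12 and 6.69 with anti-miR-182 against 6.40, 6.41 and 6.61 in placebo, a difference of 0.50 ± 0.15 (SE; limma, adjusted p = 0.660). For both, every treated array was above every placebo array, as for 8.06% of all genes. Of the 10 measured endothelial markers, 9 were higher at day 2, with a list median of 0.06. Their part in these values was not tested.

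Of the other 18 measured genes of the HIF machinery, Cited2, which competes with HIF for its coactivators, had 8.12, 8.27 and 7.88 with anti-miR-182 against 8.50, 8.47 and 8.37 in placebo at day 2, a difference of -0.35 ± 0.11 (SE; limma, adjusted p = 0.662). Rack1, a scaffold that promotes oxygen-independent loss of HIF-1 alpha, differed by -0.31 ± 0.15 (SE; limma, adjusted p = 0.761), and by -0.19 ± 0.15 without anti-miR-182 day 2 replicate 3. Hif1an, the asparagine hydroxylase that blunts HIF activity, had 6.82, 6.94 and 6.98 with anti-miR-182 against 6.88, 6.87 and 6.81 in placebo at day 2. At day 7 it had 6.59, 6.61 and 6.63 with anti-miR-182 against 6.39, 6.53 and 6.33 in placebo, with no overlap, a difference of 0.19 ± 0.099 (SE; limma, adjusted p = 0.999), where 3.5% of all genes lay wholly above placebo. Cul2, a subunit of the Vhl ligase, had 8.11, 8.30 and 8.20 with anti-miR-182 against 8.04, 8.10 and 7.74 in placebo at day 7, a difference of 0.24 ± 0.15 (SE; limma, adjusted p = 0.999).

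Among response genes of glucose and energy, Slc2a1, the glucose transporter GLUT1, differed by -0.37 ± 0.17 (SE; limma, adjusted p = 0.754) and Aldoc, an aldolase, by 0.25 ± 0.12 at day 2. Without anti-miR-182 day 2 replicate 3 the Slc2a1 difference was -0.19 ± 0.16 (SE). At day 7 Ak4, a mitochondrial adenylate kinase, differed by 0.31 ± 0.12 and Pfkfb3, which drives glycolytic flux, by -0.33 ± 0.15 (SE; limma, adjusted p = 0.999 for both). In the remaining list, Ero1a, an oxidase of protein folding, differed by -0.32 ± 0.12 and Plin2, which coats lipid droplets, by -0.33 ± 0.17 at day 2, the second of them by -0.21 ± 0.18 without that array. Plod2 and Plod1, collagen lysyl hydroxylases, differed by -0.51 ± 0.19 and -0.32 ± 0.13 at day 7. Among cell markers at day 7, 12 of 12 interstitial and 11 of 12 macrophage genes were lower with anti-miR-182. Of the proximal tubule markers 13 of 14 were higher, where 49.8% of all genes were higher. The part of these markers in the gene differences was not tested. Calcrl, a receptor that binds adrenomedullin, differed by -0.27 ± 0.14 and Slc40a1, the iron exporter ferroportin, by 0.38 ± 0.21 at day 7. Vegfa, the vessel growth factor, differed by 0.12 ± 0.14 at each day, and by 0.20 ± 0.15 at day 2 without that array. None of these passed. Averaged over both days, the differences with the smallest unadjusted p included Plod2 (-0.42 ± 0.14), Tek (0.34 ± 0.11), Cxcl12 (0.36 ± 0.13), a chemokine, and Ero1a (-0.24 ± 0.088), with adjusted p of 0.888 (limma). The Tek mean joins 0.79 at day 2 with -0.12 at day 7, so it is not an effect seen at both days. For Tek the effect at day 7 minus that at day 2 was -0.91, which did not pass.

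Between days, of the 81 genes, 5 passed the adjusted threshold as higher and 13 as lower under anti-miR-182. In placebo 9 passed as higher and 14 as lower. Among all 18166 genes, 487 passed as higher and 4515 as lower under anti-miR-182 (27.5% in all). The counts in placebo were 766 higher and 4314 lower (28% in all). These splits depend on the scaling: with centring on the array median it was 9 up and 3 down under anti-miR-182 and 15 up and 6 down in placebo, and with quantile normalization 11 up and 2 down and 12 up and 4 down. Among all genes the calls with centring were 1131 up and 1351 down under anti-miR-182 and 1480 up and 1748 down in placebo. With quantile normalization they were 1311 up and 1384 down under anti-miR-182 and 1478 up and 1436 down in placebo. Of the genes named here, Ldha, lactate dehydrogenase A, passed in both arms under every setting run. Ldha had 11.24, 11.35 and 11.43 at day 7 against 10.57, 10.70 and 10.32 at day 2 under anti-miR-182, a difference of 0.81 (limma, adjusted p = 0.00166), and it differed by 0.75 in placebo (adjusted p = 0.00242).

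Of the genes named by rule that passed under every setting in placebo, Plin2 fell by 1.05, Angptl4, an inhibitor of lipoprotein lipase, fell by 0.88 and Ak4 fell by 0.73 on the log2 scale. Plod2 rose by 0.86, Calcrl by 0.77 and Cp, the iron oxidase ceruloplasmin, by 0.69 in placebo. Under anti-miR-182, Car12, a carbonic anhydrase, fell by 0.83, Hmox1 fell by 0.72 and Bhlhe41, a transcriptional repressor, rose by 0.76. These calls held under every setting that tested the gene, and Bhlhe41 was left out with the dimmest 50% of genes. Naming a gene in an arm does not limit its change to that arm. From day 2 to day 7 in placebo, mean Car12 went from 10.31 to 9.65 and mean Bhlhe41 from 5.75 to 6.09. Mean Plin2 went from 9.59 to 8.97 under anti-miR-182. Days did not overlap in these cases, but did for Hmox1 in placebo and for Angptl4 and Calcrl under anti-miR-182. Vegfa had 7.92, 7.90 and 7.61 at day 7 against 8.41, 8.63 and 8.27 at day 2 under anti-miR-182, and it fell by 0.63 there and by 0.62 in placebo (limma, adjusted p = 0.00663 and 0.00669). With quantile normalization the Vegfa calls ended (adjusted p = 0.0936 and 0.109).

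Fam162a, a mitochondrial protein induced by HIF, fell by 0.68 in placebo, a call that quantile normalization also ended (adjusted p = 0.0809). Of the HIF machinery, Hif1an fell by 0.43 in placebo (limma, adjusted p = 0.00702) and Hif3a, a further alpha subunit, fell by 0.44 under anti-miR-182 (adjusted p = 0.00801). Both calls ended with centring and with quantile normalization, and so did that of Ak4 under anti-miR-182. Lox, a collagen cross-linking enzyme, rose by 0.93 under anti-miR-182 and by 0.96 in placebo, with the call lost without anti-miR-182 day 7 replicate 3 in the first (and with array weights) and without placebo day 2 replicate 1 or placebo day 7 replicate 2 in the second. Plod2 rose by 0.67 under anti-miR-182, a call lost without anti-miR-182 day 2 replicate 3 or day 7 replicate 3 and with array weights. Tek fell by 0.54 there, a call lost without anti-miR-182 day 2 replicate 1 or day 7 replicates 1 or 2 and with both other scalings. In placebo Tek went the other way, from a mean of 8.65 at day 2 to 9.03 at day 7, without overlap. Pdk1, which holds back pyruvate oxidation, fell by 0.54 under anti-miR-182. That call was lost without anti-miR-182 day 2 replicate 2 or day 7 replicates 1 or 3 and with both other scalings.

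Among the genes named by rule, 6 further calls held in 10 to 14 settings of 20 or 21 and were lost when any of several single arrays was left out. In placebo they were Cul2 (-0.45), Eloc (-0.42), a subunit of the Vhl ligase, and Cox4i2 (0.47), a cytochrome oxidase subunit. Under anti-miR-182 they were Pfkl (-0.44), a phosphofructokinase, Cp (0.46) and Hif1an (-0.30). Both other scalings also ended the calls of Cul2, Eloc, Pfkl and Hif1an, and with quantile normalization the differences were -0.17 for Cul2, -0.08 for Eloc, -0.25 for Pfkl and -0.12 for Hif1an.

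**Figure D4:**
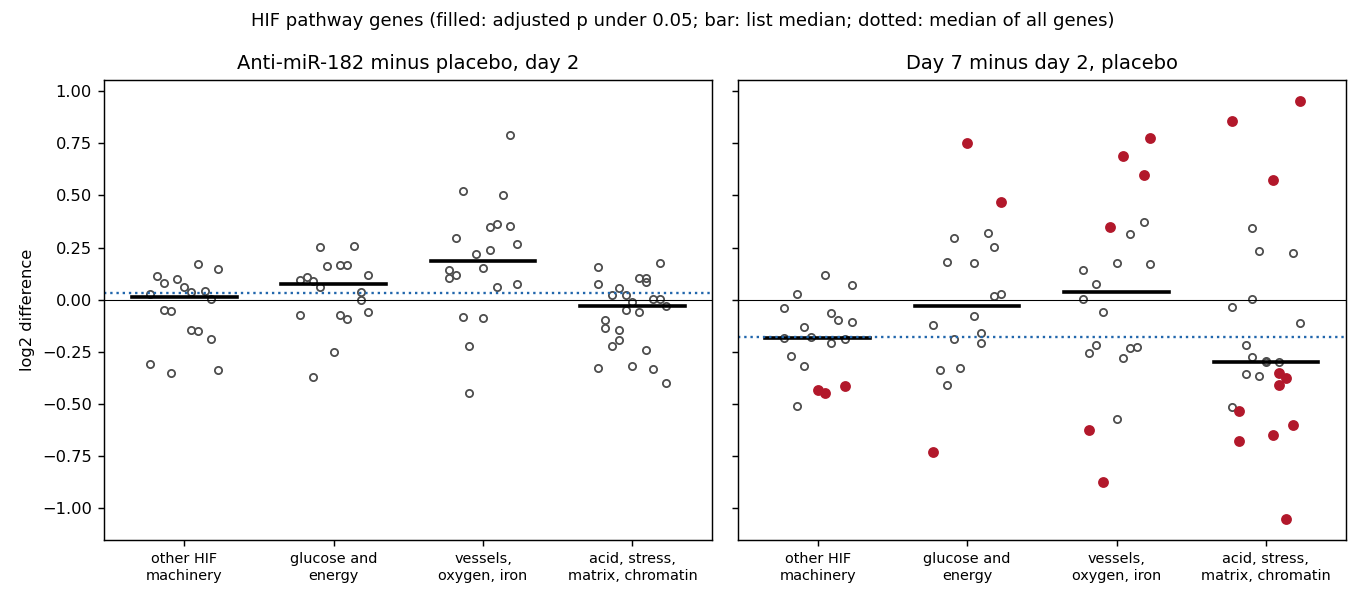
Log2 difference of each of 81 measured genes in 4 hypoxia lists, for anti-miR-182 minus placebo at day 2 (left) and for day 7 minus day 2 in placebo (right). Bars are list medians, the dotted line is the median of all genes, and filled points passed the adjusted threshold, 0 on the left and 9 higher and 14 lower on the right.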

How the data were processed

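Total RNA of rat kidney, amplified and labelled with biotin per the labels, was measured on 12 arrays. The deposited table held 36685 rows of log2 values made by the authors with RMA (background correction, normalization and summary of probes), per the submitters' processing notes. For the RMA version, the array build and joint or separate normalization of the days, the sources used here give nothing. Precision is limited by 3 arrays a group. Where labels differ (a description names a zero-hour biopsy, titles name day 2 or 7), titles set the groups.

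The annotation gave 18511 rows a single symbol and 575 several, with 17599 rows not listed. Single-symbol rows with values on every array gave 18166 genes, the row with the highest mean being used for 291 genes with several rows. The values as deposited went into one limma model (version 3.58.1, R 4.3.3) of 4 group means with 6 contrasts and eBayes. The threshold was 0.05 on the p-value after Benjamini-Hochberg adjustment over all genes. The fit was checked on simulated data. Python 3.11.15 and pandas 2.3.3 were used for summaries. Genes were named by rule: all members, then up to 4 genes per list and comparison that passed, or, with treatment, the 2 with the smallest p, with Hif1an and Vegfa always. Members, lists and tests were chosen with earlier results of these data known. Alternatives were other normalizations, array weights, filters on dim genes, other eBayes settings and leaving out each array. Titles give each array an animal code of its own and say nothing of how animals were kept. The p-values weigh each difference against the spread between these arrays, as limma estimates it.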

Additional observations from a re-analysis of the deposited data

How the results depend on the processing

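No paired analysis was possible because the labels give no replicate numbers that are shared across groups, and the numbers used here were given in accession order. With 3 arrays a group and several rows near the median signal, precision is limited. No member passed in a comparison of treatment with placebo under any setting run. The cause of the changes below was not tested.

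Between days in placebo, 1 member passed, against 3 with array weights, 0 with quantile normalization, 2 at an adjusted p under 0.1 and 1 to 3 when an array was left out. Under anti-miR-182, 0 members passed, against 1 with array weights, 1 at an adjusted p under 0.1 and 0 to 1 when an array was left out. The signs of the values that follow turned. With array weights the day 2 treatment difference was 0.019 for Hif1a, the day 7 one was -0.015 for Epas1 and 0.041 for Vhl, and the difference of the effects was 0.026 for Epo. With quantile normalization it was -0.0039 for Epas1 at day 7 and 0.031 for Epo in the difference of the effects. Between days in placebo, quantile normalization gave 0.30 for Hif1a, 0.024 for Egln3 and 0.020 for Epo, and centring gave 0.11, 0.044 and 0.080 for the same genes. Between days under anti-miR-182, quantile normalization gave 0.22 for Hif1a, 0.19 for Egln1, 0.14 for Vhl and 0.051 for Epo, and centring gave 0.097, 0.16, 0.13 and 0.063 for the same genes.

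When an array was left out, the treatment difference at day 2 ranged from -0.053 to 0.049 for Hif1a, -0.34 to 0.15 for Epas1 and -0.16 to 0.022 for Epo. At day 7 it ranged from -0.069 to 0.051 for Epas1, -0.19 to 0.10 for Vhl and -0.080 to 0.027 for Adm. Averaged over days it ranged from -0.17 to 0.077 for Epas1, -0.031 to 0.12 for Vhl and -0.0060 to 0.11 for Adm. The difference of the effects ranged from -0.15 to 0.34 for Epas1 and -0.15 to 0.050 for Epo. Between days in placebo it ranged from -0.21 to 0.024 for Egln3 and -0.027 to 0.27 for Vhl. Between days under anti-miR-182 it ranged from -0.26 to 0.15 for Egln1, -0.13 to 0.32 for Egln2 and -0.19 to 0.067 for Vhl.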
